A study of Mus musculus with 24 samples.

Results

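The 10 genes described here encode complement proteins and complement receptors that myeloid cells make: C1qa, C1qb, C1qc, C2, C3, C4b, Cfb, Cfp, C3ar1 and C5ar1. They were taken by gene symbol from a list, which was chosen with earlier results of these data known. All 10 were found among the 54532 genes of the table. Their RNA was measured in 24 polyA RNA-seq libraries, 3 in each of 8 groups. Bone marrow-derived macrophages (BMDMs) were grown from mouse femur and tibia marrow in medium conditioned by L929 cells, a fibroblast line, and bone marrow-derived dendritic cells (BMDCs) with GM-CSF and IL-4. All donor mice carried floxed Tmem173, the gene of the DNA-sensing adaptor STING, on both alleles. The study's methods describe tamoxifen injection of such mice, but do not state it for the marrow donors. The groups labelled WT had no Cre, and those labelled CRE carried a tamoxifen-inducible CreERT2 driven by Lyz2, a gene of myeloid cells. Deletion therefore depends on tamoxifen and on how active Lyz2 was in the cell and its precursors. Each cell type and label was left as control or stimulated with DMXAA, which binds and activates mouse STING. The series description gives 40 µM. The study's methods give µg/mL in its place, so the concentration is uncertain. The study's methods give ranges of weeks of age for mice at tamoxifen injection, but not which of them holds for these marrow donors, and the treatment time of these libraries was not given in the sources used here.

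Complement is a cascade of blood and tissue proteins that marks targets for uptake and calls in leukocytes. C1q, built from the chains of C1qa, C1qb and C1qc, starts the classical pathway by binding immune complexes and dying cells, and C4 and C2 carry the signal to C3, where all pathways meet. Factor B (Cfb) and properdin (Cfp) form and stabilise the amplifying convertase of the alternative pathway, and the fragments C3a and C5a act on the receptors C3ar1 and C5ar1. Macrophages are a main source of C1q in tissue, and properdin is made largely by leukocytes.

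Total counts ran from 15657347 to 18912887 per library. The 4 BMDM libraries numbered 3, one in each BMDM group, stood apart. The median of 10 fibroblast markers was 491 to 634 CPM (counts scaled to library size) in them and 1.90 to 35.6 in the other 8 BMDM libraries, and 5 to 7 of 10 macrophage markers were below 1 CPM in them, against 0 or 1 in the other 8. They went against their label, so they are given apart, as values without a test, and the BMDM tests use the libraries numbered 1 and 2. Among those, both WT-labelled libraries numbered 2 had a fibroblast marker median of 35.4 and 35.6 CPM, against 1.90 to 3.16 in the other 6. In BMDCs, the CRE-labelled control numbered 2 correlated with the other 5 controls at r = 0.948 to 0.964, and those 5 with each other at 0.978 to 0.996. Its median of 10 neutrophil markers was 21.6 CPM, against 0.895 to 2.40 in those 5. Its 10 macrophage markers summed to 2238 CPM, against 7385 to 9148. The CRE-labelled DMXAA library numbered 2 had 7.22 and 2075 CPM. WT-labelled number 2 and CRE-labelled number 3, and WT-labelled number 3 and CRE-labelled number 1, were closer to each other (r = 0.996 in control and with DMXAA) than to any BMDC library of their own label and treatment. Whether labels were exchanged was not tested, so each comparison of the BMDC labels holds for the labels as given. Tmem173 itself was never near 0. It lay between 8.76 and 10.4 FPKM (fragments scaled to gene length and library size) in CRE-labelled BMDMs numbered 1 and 2 and between 9.91 and 31.9 in the WT-labelled ones, and the CRE-labelled BMDCs (19.7 to 36.9) overlapped with the WT-labelled ones (28.8 to 55.3). In BMDMs Tmem173 was called lower in CRE-labelled libraries under DMXAA (-1.45, edgeR, adjusted p = 0.00921) and not in control (-0.39, adjusted p = 0.772), and higher with DMXAA in WT-labelled ones (1.04, adjusted p = 0.0135). In BMDCs it was called in neither label comparison. The whole-gene value does not show whether the floxed exons were lost, so it did not check the labels.

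The 10 genes lie on 5 chromosomes, all on the reverse strand (GRCm38). C1qa, C1qc and C1qb are neighbours on chromosome 4 and together span 18675 bases, from chr4:136880129-136886187 (C1qb) through chr4:136889804-136893065 (C1qc) to chr4:136895917-136898803 (C1qa). C4b, Cfb and C2 lie within 169886 bases of chromosome 17, in the major histocompatibility complex, with 85 bases between the Cfb and C2 gene models. C3 is on the same chromosome at chr17:57203970-57228136. Of the exon bases of Cfb, 79.5% also belong to the read-through model Gm20547, as do 42.8% of those of C2. The counting could thus have dropped reads of the shared bases, which leaves the levels of Cfb and C2 uncertain. Gm20547 had 0 counts in all 24 libraries, so no read was assigned to it. Whether reads were dropped was not tested. C4b shares 35.2% of its 50-base stretches with its close copy C4a, so its level is uncertain too.

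Promoter windows of RefSeq (GRCm38.p6), from 250 bases before to 50 bases after a start site, were matched by symbol for 6 of the 10 genes (C1qb, C1qc, C3, Cfp, C3ar1 and C5ar1), and none was matched for C1qa, C2, C4b and Cfb. The windows of C1qb and C1qc are shown because these neighbours were each other's nearest gene in level across libraries, and that of C3 because it had the largest fitted change with DMXAA among the genes detected in every control. Capitals mark a match to a searched motif, and lower case is the rest of the window.
C1qb, chr4:136886151-136886450, reverse strand: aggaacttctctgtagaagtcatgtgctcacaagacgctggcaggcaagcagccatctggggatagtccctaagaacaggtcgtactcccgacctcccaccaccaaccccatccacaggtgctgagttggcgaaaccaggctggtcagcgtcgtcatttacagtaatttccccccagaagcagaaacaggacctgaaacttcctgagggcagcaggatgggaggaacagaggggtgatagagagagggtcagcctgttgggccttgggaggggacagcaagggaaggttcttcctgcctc
C1qc, chr4:136892865-136893164, reverse strand: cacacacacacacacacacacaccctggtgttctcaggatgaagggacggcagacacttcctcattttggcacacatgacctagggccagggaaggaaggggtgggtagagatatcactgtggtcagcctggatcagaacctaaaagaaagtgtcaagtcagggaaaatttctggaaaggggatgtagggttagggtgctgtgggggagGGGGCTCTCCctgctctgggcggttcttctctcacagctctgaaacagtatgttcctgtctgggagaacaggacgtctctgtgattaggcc
C3, chr17:57228087-57228386, reverse strand: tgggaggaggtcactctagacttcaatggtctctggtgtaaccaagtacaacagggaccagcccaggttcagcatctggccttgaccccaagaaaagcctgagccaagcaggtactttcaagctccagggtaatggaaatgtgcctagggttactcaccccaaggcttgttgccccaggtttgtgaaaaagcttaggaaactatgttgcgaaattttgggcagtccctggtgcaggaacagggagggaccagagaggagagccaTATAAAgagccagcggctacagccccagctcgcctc
Both strands were searched for 4 motifs: the interferon-stimulated response element as GAAA, any 2 bases and GAAA, the gamma-activated site as TTCNNNGAA, the NF-kB consensus and the TATA box as TATAAA. Of 32851 windows, 3.44% held the first, 8.3% the second, 4.5% the NF-kB consensus and 13.6% TATAAA. C1qc held an NF-kB match at -41 to -32, counted from the start base as 0, and no other matched gene held one. TATAAA stood at 14 to 19 in C3 and at -235 to -230 in C3ar1. None of the 6 windows held the first or the second motif, which says only that these letters were not in these windows.

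C1qb was the most abundant of the 10 transcripts in BMDMs, and all 3 C1q chains were far lower in BMDCs. In the 4 BMDM controls numbered 1 and 2, C1qb had 650, 839, 843 and 877 FPKM, which made it number 33 of 54532 genes by median level. C1qc had 295 to 440 and C1qa 237 to 289 FPKM. The chains kept this order in every BMDM library numbered 1 and 2. In the 6 BMDC controls C1qb had 3.41 to 12.9 FPKM, C1qc 0.658 to 2.18 and C1qa 0 to 0.408. The ranges of the cell types were far apart for all 3 chains. The libraries numbered 3 had 0 counts of all 3 chains in all 4 cases, which allows up to 3 counts each, and with bulk RNA fewer cells of a type and less RNA per cell cannot be told apart.

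**Figure D1:**
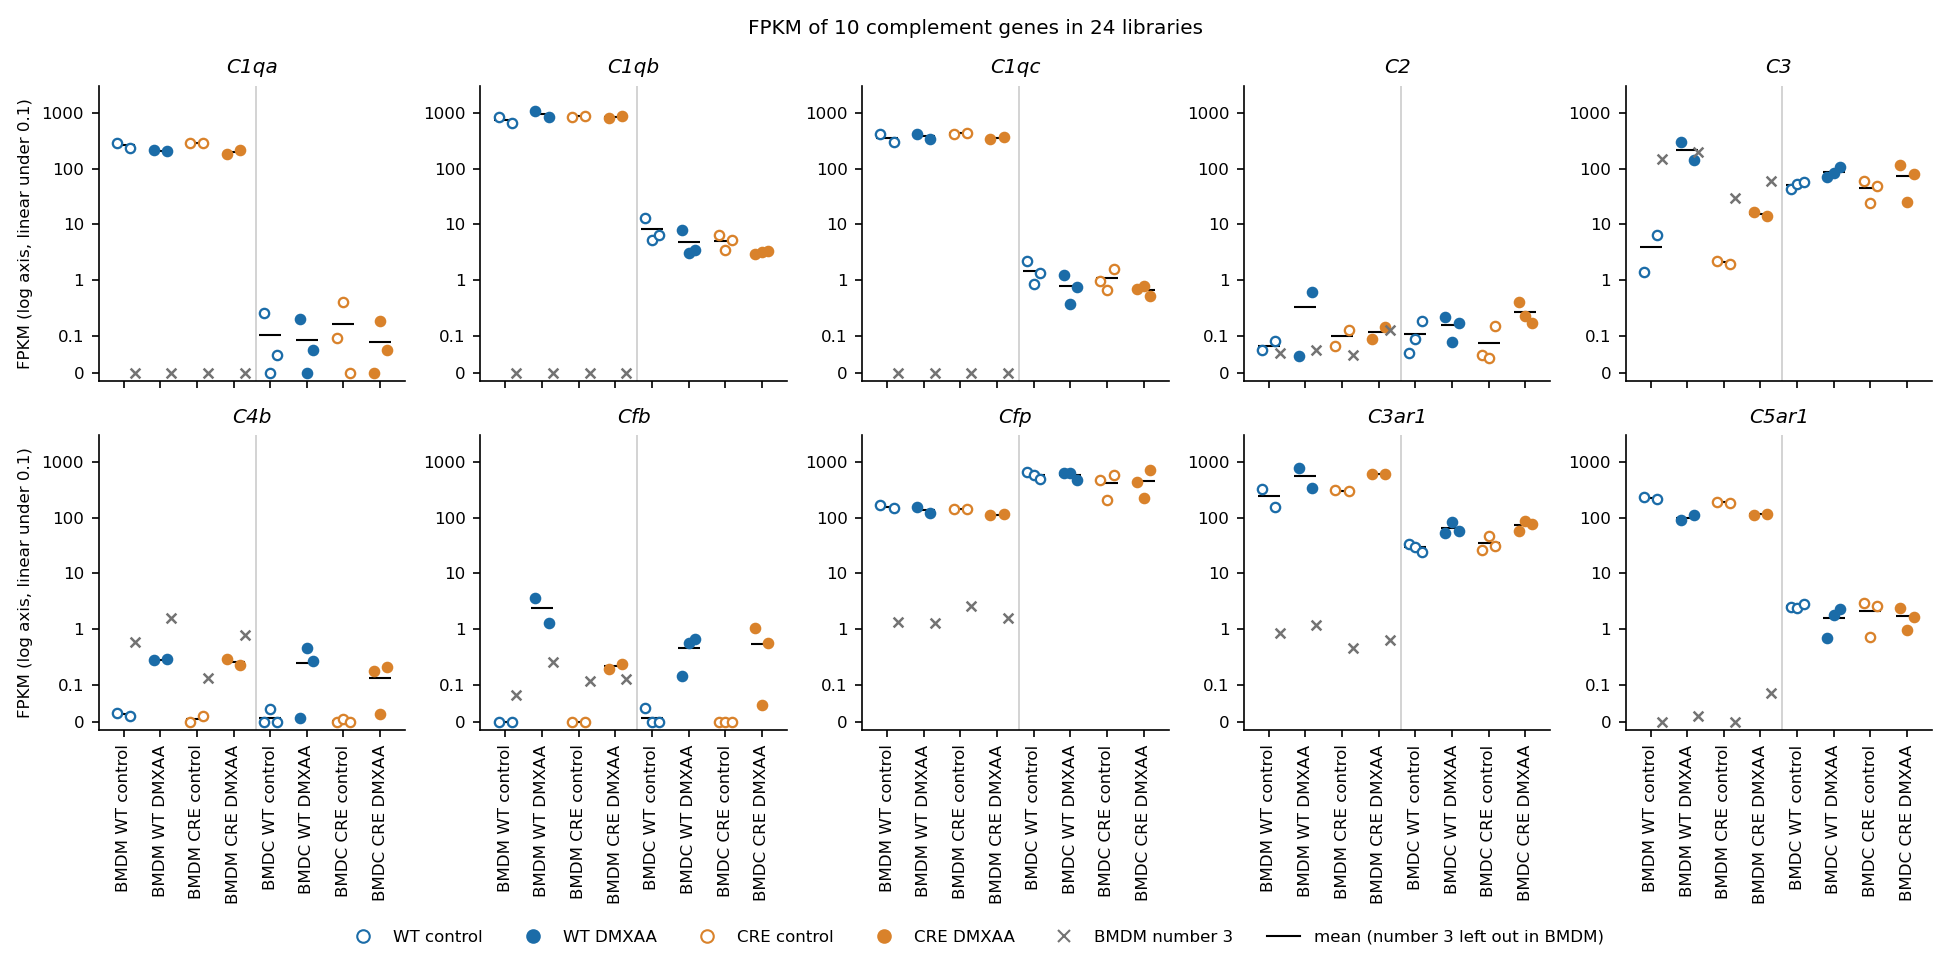
FPKM (log axis, linear under 0.1) of the 10 complement genes in 24 libraries. Circles are single libraries by group, lines are group means, and crosses are the BMDM libraries numbered 3, which are left out of the means. C1qa, C1qb, C1qc and C5ar1 are high in BMDMs numbered 1 and 2 and low in BMDCs, Cfp is higher in BMDCs, and C3 in WT-labelled BMDMs goes from 1.42 and 6.56 in control to 294 and 140 FPKM with DMXAA.

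Under DMXAA the summed C1q level of BMDMs overlapped with control, while the shares of its chains did not. The summed FPKM was 1182 to 1606 in the 4 controls and 1318 to 1687 in the 4 DMXAA libraries. C1qa made up 17.97% to 20.1% of that sum in control and 12.7% to 14.8% under DMXAA, without overlap. C1qb made up 54.5% to 55.0% in control and 59.7% to 62.7% under DMXAA, also without overlap. The share of C1qc overlapped (25.0% to 27.4% in control, 24.3% to 25.9% under DMXAA). These shares do not depend on how the libraries were scaled.

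C1qa, which encodes the A chain, was the C1q gene that passed the test. In WT-labelled BMDMs it had 283 and 237 FPKM in control and 214 and 203 with DMXAA. Both DMXAA values were below both controls, and the log2 fold change was -0.43 ± 0.14 (SE, n = 2 against 2, edgeR quasi-likelihood test, adjusted p = 0.0443). In CRE-labelled BMDMs it had 282 and 288 FPKM in control and 179 and 212 with DMXAA, a log2 fold change of -0.57 ± 0.14 (adjusted p = 0.0478, edgeR). Both calls were close to the threshold of 0.05. Under DESeq2's scaling in the same test the WT-labelled one was not called (-0.37, adjusted p = 0.0777). The WT-labelled call was lost in 3 of the 4 fits that left out 1 library, all but that without the control numbered 2, and the CRE-labelled one in all 4 (adjusted p = 0.106 to 0.130 and 0.137 to 0.317). C1qb changed by 0.23 ± 0.16 and -0.07 ± 0.16 in the 2 labels and C1qc by -0.04 ± 0.19 and -0.29 ± 0.19, and none of these passed. The sign of both WT-labelled values depended on the scaling. Dividing by total counts alone brings the median of all genes to -0.59 in WT-labelled BMDMs, and there C1qb gave -0.29 and C1qc -0.57, the latter with an adjusted p of 0.0318 (edgeR), while DESeq2's scaling gave 0.30 and 0.02. The CRE-labelled values stayed negative under both scalings.

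In BMDCs, C1qb and C1qc were lower with DMXAA in the means, without passing the test as fitted. C1qb had 12.9, 5.29 and 6.36 FPKM in the WT-labelled controls and 7.89, 3.02 and 3.41 with DMXAA under the same numbers. Each number fell while the groups overlapped, and the log2 fold change was -0.81 ± 0.42 (n = 3 against 3, edgeR, adjusted p = 0.173). With the replicate number as a block within each label, it was -0.83 (edgeR, adjusted p = 0.0111), and it also passed without the DMXAA library numbered 1 (-1.34, adjusted p = 0.0346). In CRE-labelled BMDCs the controls had 6.52, 3.41 and 5.21 and the DMXAA libraries 2.96, 3.19 and 3.27 FPKM, a log2 fold change of -0.71 ± 0.43 (adjusted p = 0.265, edgeR) and of -0.67 with the block (adjusted p = 0.0404). C1qc changed by -0.90 ± 0.50 and -0.70 ± 0.50 and C1qa stayed at 8 counts or fewer in every BMDC library, below the level tested.

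**Figure D2:**
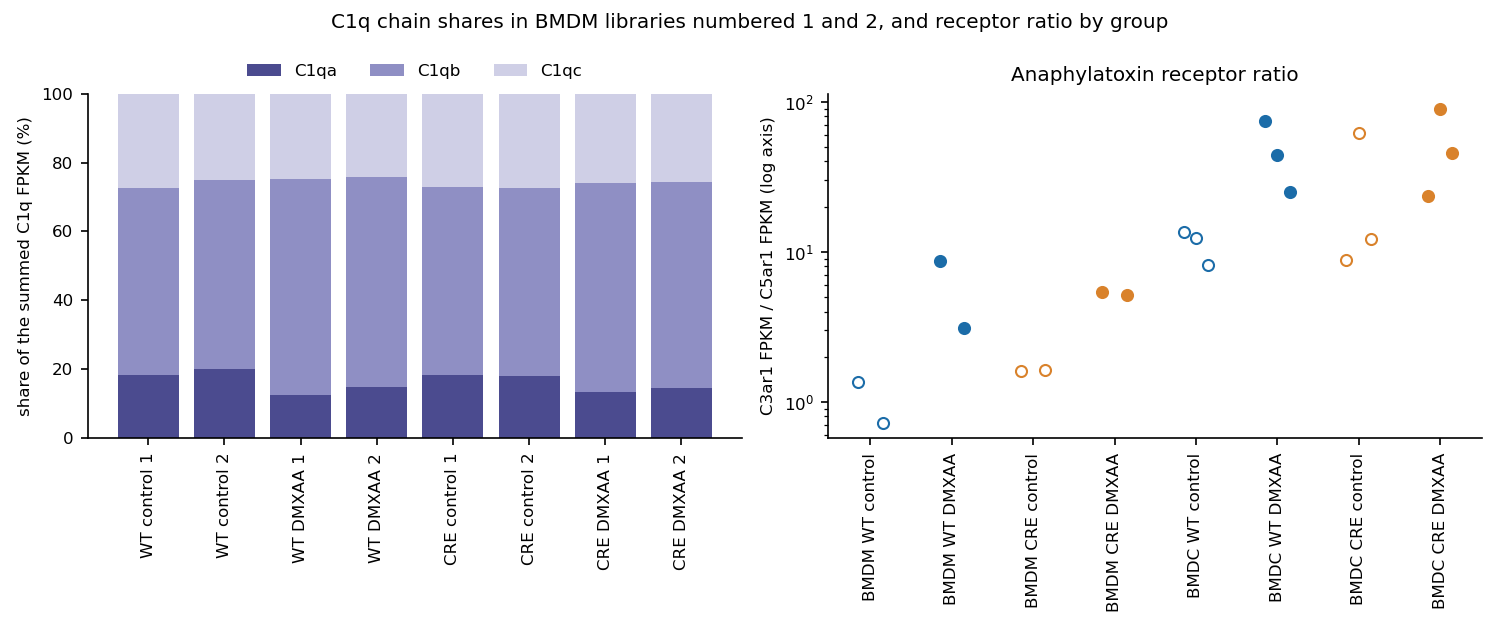
Left, share of each C1q chain in the summed C1q FPKM (%, stacked bars) in the 8 BMDM libraries numbered 1 and 2. Right, ratio of C3ar1 to C5ar1 FPKM per library (log axis) by group, with open circles for control and filled ones for DMXAA. The C1qa share is 17.97% to 20.1% in control and 12.7% to 14.8% with DMXAA, and the receptor ratio in BMDMs is 0.728 to 1.64 in control and 3.11 to 8.68 with DMXAA.

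C3, the central component that all complement pathways cleave, rose in WT-labelled BMDMs. In WT-labelled BMDMs numbered 1 and 2 it had 1.42 and 6.56 FPKM in control and 294 and 140 with DMXAA. The groups did not overlap, and the log2 fold change was 5.64 ± 0.78 (n = 2 against 2, edgeR, adjusted p = 0.00203). In CRE-labelled BMDMs it had 2.23 and 1.96 FPKM in control and 16.3 and 14.1 with DMXAA. These did not overlap either, and the log2 fold change of 2.84 ± 0.70 missed the threshold narrowly (edgeR, adjusted p = 0.0518). It passed in DESeq2 (adjusted p = 2.2e-05) and in the fit of the CRE-labelled libraries alone (2.84, adjusted p = 1.2e-12). The biological coefficient of variation over all genes was 5.19% among the CRE-labelled and 35.1% among the WT-labelled BMDMs. CRE-labelled BMDMs numbered 1 and 2 correlated at r = 0.997 in control and with DMXAA, and WT-labelled ones at 0.961 and 0.969. The labels do not state separate cultures, so the p-value of the CRE-labelled fit alone may measure technical spread.

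Under DMXAA, C3 was lower in CRE-labelled than in WT-labelled BMDMs by 3.78 ± 0.71 on the log2 scale (edgeR, adjusted p = 0.0146). No difference between the labels was called in control (-0.98 ± 0.68, adjusted p = 0.796, 95% interval -2.59 to 0.63). The test of the difference between the responses gave -2.80 ± 0.94 (95% interval -5.05 to -0.56) and did not pass (edgeR, adjusted p = 0.163), while it did in DESeq2 (-2.88, adjusted p = 0.0074). The WT-labelled control numbered 2, which held the most fibroblast marker RNA of the 4 controls (35.6 CPM), also had the highest C3 of the 4, and without it the difference was -4.33 (edgeR, adjusted p = 0.0112). The part of fibroblast RNA in the C3 values was not tested. The call under DMXAA was lost without either CRE-labelled DMXAA library (adjusted p = 0.118 and 0.127), without the WT-labelled one numbered 1 (adjusted p = 0.0505), and when only WT-labelled libraries set the variance (adjusted p = 0.127).

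The libraries numbered 3 had much more C3 in control than the others. They held 148 FPKM in the WT-labelled and 29.6 in the CRE-labelled control, and 198 and 59.1 with DMXAA. C3 was thus the only one of the 10 genes at more than 3 FPKM in these 4 libraries. With all 12 BMDM libraries in the fit the WT-labelled response was 2.08 (edgeR, adjusted p = 0.882), so it rests on leaving these libraries out.

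**Figure D3:**
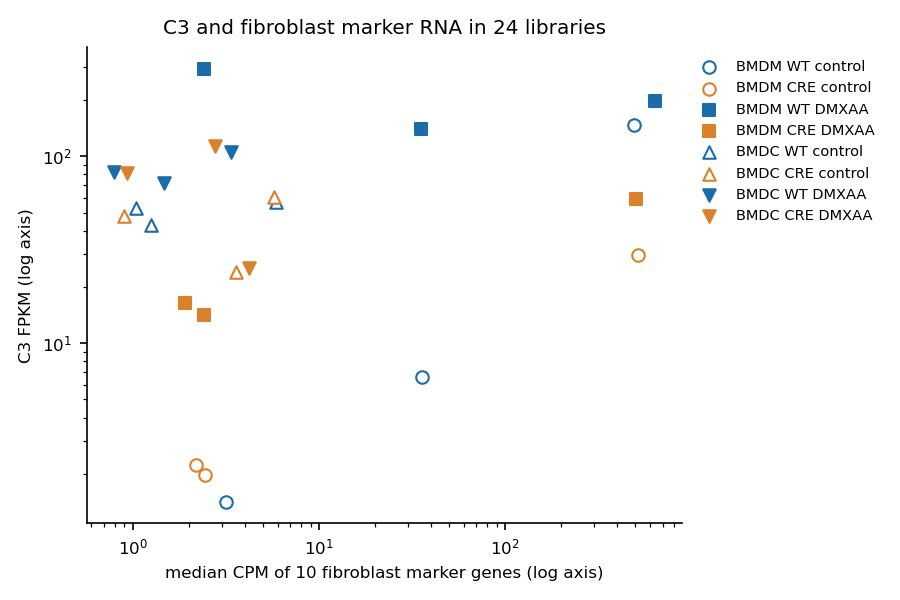
C3 level (FPKM, log axis) against the median CPM of 10 fibroblast markers (log axis) in the 24 libraries, with symbol shape and filling for cell type and treatment and colour for the label. The 4 BMDM libraries numbered 3 lie at 491 to 634 CPM of fibroblast markers, both WT-labelled BMDM libraries numbered 2 at 35.4 and 35.6, and the highest C3 (294 FPKM) is in a library at 2.40 CPM.

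BMDCs made C3 without stimulation and changed less. The WT-labelled controls had 42.6, 52.8 and 56.9 FPKM and the DMXAA libraries 71.5, 82.3 and 106. The groups did not overlap, and the log2 fold change of 0.75 ± 0.46 was not called in the fit of all 12 BMDC libraries (edgeR, adjusted p = 0.260), but was with the replicate block within each label (0.74, adjusted p = 0.00324). The CRE-labelled controls had 60.5, 23.95 and 47.9 FPKM and the DMXAA libraries 113, 25.4 and 81.3 under the same numbers. Both values of number 2 were the lowest of their group, and the log2 fold change was 0.71 ± 0.46 (adjusted p = 0.307, edgeR), 0.56 with the block (adjusted p = 0.0159) and 0.82 without both libraries of number 2 (adjusted p = 0.0298). No difference in response between the labels was called (-0.03 ± 0.65, 95% interval -1.47 to 1.40, edgeR, adjusted p = 0.9999).

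The C3 response differed between the cell types, and this was the one of the 8 members tested for which that difference passed. In control, WT-labelled BMDCs had more C3 than BMDMs by 3.61 ± 0.68 on the log2 scale (edgeR, adjusted p = 0.000921). With DMXAA they had 1.27 ± 0.57 less, which did not pass (adjusted p = 0.104). The difference in response, BMDCs minus BMDMs, was -4.89 ± 0.87 (edgeR, adjusted p = 0.006), and this held in all 10 fits that left out 1 library (-6.42 to -4.19).

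Factor B, the serine protease of the alternative pathway, rose from no detected reads in WT-labelled BMDMs. Cfb had 0 counts in all 4 BMDM controls numbered 1 and 2, and 114 and 53 counts in the WT-labelled DMXAA libraries (3.57 and 1.30 FPKM). Against a floor of 3 counts per library this is at least 47.6-fold higher, and the gene was called (edgeR, adjusted p = 0.0032). The CRE-labelled DMXAA libraries had 9 and 11 counts (0.192 and 0.241 FPKM), at least 3.83-fold higher than control and not called in edgeR (adjusted p = 0.053), but called in DESeq2 (adjusted p = 0.00516). Under DMXAA the labels did not overlap and the CRE-labelled level was lower by 3.42 ± 0.66 (log2, edgeR, adjusted p = 0.0297), a call lost without either CRE-labelled DMXAA library and when only WT-labelled libraries set the variance (adjusted p = 0.195, 0.172 and 0.139). Cfb passed the filter on low values only through the WT-labelled DMXAA libraries, so its calls there carry that choice. Floors and intervals on counts cover counting error only, and not reads that the overlap of Cfb with Gm20547 could have cost.

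In BMDCs Cfb and C4b stayed below the level tested in every group, but DMXAA libraries held more counts. Cfb had 2, 0 and 0 counts in the WT-labelled controls and 6, 24 and 29 with DMXAA, at least 8.38-fold higher. It had 0 counts in all 3 CRE-labelled controls and 41, 2 and 24 with DMXAA, so number 2 stayed within the floor. Without a filter on low values both responses were called (edgeR, adjusted p = 0.00109 and 8.77e-05).

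C4b and C2, which build the convertase of the classical pathway, were near the limit of detection in these counts. Reads shared with C4a (C4b) or Gm20547 (C2) could have been dropped, so both levels are uncertain. C4b had 3, 2, 0 and 2 counts in the BMDM controls numbered 1 and 2 and 18, 24, 28 and 21 with DMXAA, at least 11.2-fold higher in the WT-labelled and at least 9.36-fold in the CRE-labelled libraries. The DMXAA values were all above the controls in both labels, and without a filter both were called (edgeR, adjusted p = 0.000539 and 0.000141), while the labels under DMXAA were at 0.280, 0.292, 0.296 and 0.228 FPKM and overlapped. In BMDCs, C4b had 0, 4 and 0 counts in the WT-labelled controls and 1, 40 and 23 with DMXAA, and 0, 1 and 0 in the CRE-labelled controls and 14, 2 and 18 with DMXAA. Control and DMXAA libraries overlapped in WT-labelled BMDCs, and in CRE-labelled ones number 2 was below the floor of 3 counts in both states. Without a filter C4b was called in both BMDC labels (edgeR, adjusted p = 0.00616 and 0.00745). C2 had 2 to 35 counts in the 8 BMDM libraries and 3 to 22 in BMDCs, and no C2 comparison passed even without a filter. The highest C2, at 35 counts, came from the WT-labelled DMXAA BMDM library numbered 2, while its partner had 2.

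Properdin, the stabiliser of the alternative convertase, was the highest of the 10 transcripts in BMDCs. Cfp had 203 to 668 FPKM in the 6 BMDC controls, with a median of 526, and was number 70 of all genes. The lowest value was that of the CRE-labelled control numbered 2, and the other 5 had 479 or more. In BMDM controls numbered 1 and 2 Cfp had 140, 141, 149 and 165 FPKM. The cell types did not overlap, and WT-labelled BMDCs had more by 1.82 ± 0.43 in control and 2.11 ± 0.43 with DMXAA (log2, edgeR, adjusted p = 0.00463 and 0.00171). With DMXAA, Cfp did not pass in any of the 4 sets (-0.30, -0.33, -0.03 and 0.10 in WT-labelled and CRE-labelled BMDMs and BMDCs). Its values in both BMDM labels were called lower when only total counts scaled the libraries (-0.82 and -0.56, adjusted p = 0.00179 and 0.0297).

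**Figure D4:**
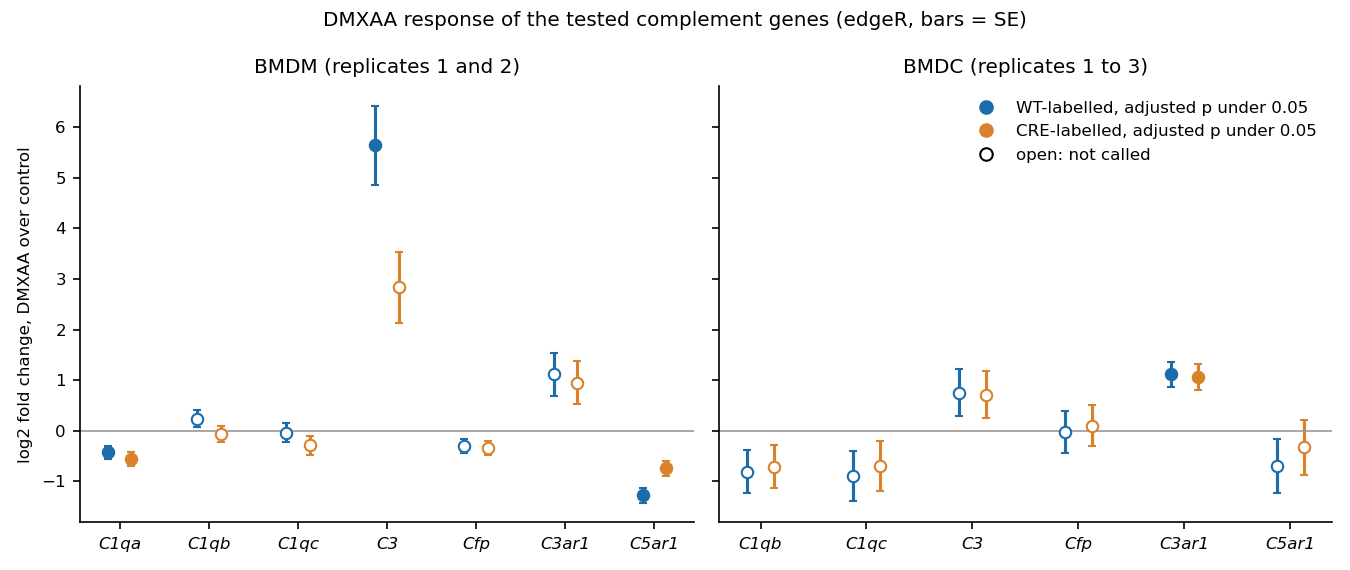
Log2 fold change of DMXAA over control (points, with bars for the SE of the edgeR fit) for the members tested, in BMDMs numbered 1 and 2 and in BMDCs. Filled points passed an adjusted p of 0.05 and open ones did not. Cfb is left out because its controls had 0 counts. C3 stands highest at 5.64 in WT-labelled BMDMs, and C3ar1 and C5ar1 lie on opposite sides of 0 in BMDMs.

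Of the receptors for the fragments C3a and C5a, C3ar1 rose with DMXAA in BMDCs and C5ar1 fell in BMDMs. C3ar1 had 322 and 156 FPKM in the WT-labelled BMDM controls and 773 and 345 with DMXAA. Each DMXAA value was above both controls, though number 2 was the lower one in each case, and the log2 fold change of 1.12 ± 0.43 did not pass (edgeR, adjusted p = 0.0803). It passed in DESeq2 (1.18, adjusted p = 0.0119). In CRE-labelled BMDMs it went from 308 and 301 to 604 and 593 FPKM, a log2 fold change of 0.95 ± 0.43 (adjusted p = 0.209, edgeR). It passed when only these 4 libraries were fitted (0.95, edgeR, adjusted p = 2.74e-11), a fit that rests on their small spread, which may be technical. The ratio of DMXAA to control FPKM under the same number lay between 1.96 and 2.40 in all 4 cases. In BMDCs the response was called in both labels. WT-labelled controls had 34.2, 29.96 and 23.8 FPKM and DMXAA libraries 52.4, 81.8 and 58.3, without overlap (1.11 ± 0.26, edgeR, adjusted p = 0.00638). CRE-labelled controls had 26.4, 46.0 and 31.3 and DMXAA libraries 56.9, 86.9 and 76.6, also without overlap (1.06 ± 0.26, adjusted p = 0.0103, edgeR), a call that went just past the threshold without the control numbered 1 (adjusted p = 0.0501).

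C5ar1, the C5a receptor, fell with DMXAA in BMDMs of both labels. WT-labelled libraries had 235 and 215 FPKM in control and 89.0 and 111 with DMXAA, a log2 fold change of -1.28 ± 0.14 (edgeR, adjusted p = 0.000828). CRE-labelled libraries had 192 and 184 in control and 112 and 115 with DMXAA, a log2 fold change of -0.75 ± 0.14 (edgeR, adjusted p = 0.022). The groups did not overlap in either label. The WT-labelled call held in all 4 fits that left out 1 library, and the CRE-labelled one in none of its 4. The responses of the labels differed by 0.53 ± 0.20 (95% interval 0.06 to 1.01), which did not pass (edgeR, adjusted p = 0.196) but did without the WT-labelled DMXAA library numbered 2 (0.71, adjusted p = 0.0382). The ratio of C3ar1 to C5ar1 FPKM was 0.728 to 1.64 in the 4 BMDM controls and 3.11 to 8.68 in the 4 DMXAA libraries, without overlap. In BMDCs, C5ar1 was at 0.706 to 2.97 FPKM and its changes of -0.70 ± 0.54 and -0.33 ± 0.54 did not pass.

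With DMXAA, 4 of the 8 members tested in WT-labelled BMDMs were called (C3 and Cfb higher, C1qa and C5ar1 lower), where 39.2% of 11569 genes were (18.4% higher and 20.7% lower). Cfb was tested only because its level in these DMXAA libraries passed the filter, so it is no support for either this count or that between the labels under DMXAA. The others were 3 of 7, and the median change of the 8, Cfb included, was 0.10 against -0.08 over all genes. In CRE-labelled BMDMs 2 of 8 were called, both lower, against 10% of genes (7.28% higher and 2.72% lower). The WT-labelled and CRE-labelled BMDMs differed for 2 of 8 under DMXAA, C3 and Cfb, both lower in CRE (1 of 7 without Cfb), against 19.2% of genes (9.26% higher and 9.99% lower), and for 0 of 8 in control, where 0.0432% of genes were called and 0 members had an unadjusted p under 0.05 (DESeq2 also called 0). Scaling by total counts alone moved the share of higher calls among all genes from 47.1% to 20.4% in WT-labelled BMDMs, from 72.8% to 43.6% in CRE-labelled ones and from 48.1% to 70.9% between the labels under DMXAA. The responses of the labels differed for 0 of 8 in edgeR, where 3.66% of genes were called (1.38% higher and 2.28% lower) and 2 members, C3 and C5ar1, had an unadjusted p under 0.05, and for 1 in DESeq2. In BMDCs 6 members were tested. The corresponding shares moved from 52.7% to 26.4% with DMXAA in WT-labelled BMDCs, from 55.2% to 26.4% in CRE-labelled ones, from 37.7% to 66.7% for the responses of the BMDM labels, from 50.1% to 65% between cell types under DMXAA and from 33.8% to 44.9% for the cell type difference in response. C3ar1 alone was called with DMXAA in the WT-labelled (32.2% of 12126 genes, 17% higher and 15.2% lower) and in the CRE-labelled set (25.4%, 14% higher and 11.4% lower). With the replicate number as a block within each label, 3 of 6 were called in each, C3ar1 and C3 higher and C1qb lower, against 48.7% and 42.7% of genes in that fit. The labels of BMDCs differed for 0 of 6 in control, under DMXAA and in response, and edgeR called 0% of all genes in all 3, with 99, 108 and 60 genes and 0 members at an unadjusted p under 0.05, while DESeq2 called 0 members.

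Between the cell types, the C1q chains and both receptors were lower in BMDCs and Cfp was higher. In control, 7 of 8 members tested were called in WT-labelled cells, against 28.5% of 13368 genes (13.1% higher and 15.4% lower), with C3 and Cfp higher in BMDCs and C1qa, C1qb, C1qc, C3ar1 and C5ar1 lower. Under DMXAA, 6 of 8 were called against 30.6% of genes (15.3% in each direction), with Cfp higher and the same 5 lower. The median difference of the 8 was -4.79 in control and -4.48 under DMXAA, against -0.02 and 0.04 over all genes. C1qa passed the filter on low values only through BMDMs, so its calls carry that choice. Cfb passed only through DMXAA libraries, and neither gene is support for these counts or medians. C1qa differed most (-11.3 ± 0.64 in control, adjusted p = 1.38e-08, edgeR) and rests on 5, 0 and 1 counts in the BMDC controls. C1qc followed with -8.00 ± 0.45, C1qb with -6.57 ± 0.43, C5ar1 with -6.48 ± 0.52 and C3ar1 with -3.09 ± 0.36. Of these responses the difference between the cell types passed for C3 alone (1 of 8, lower, against 2.61% of genes, 0.883% higher and 1.73% lower). With all BMDM libraries in the fit 0 of the 8 were called in either state.

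**Figure D5:**
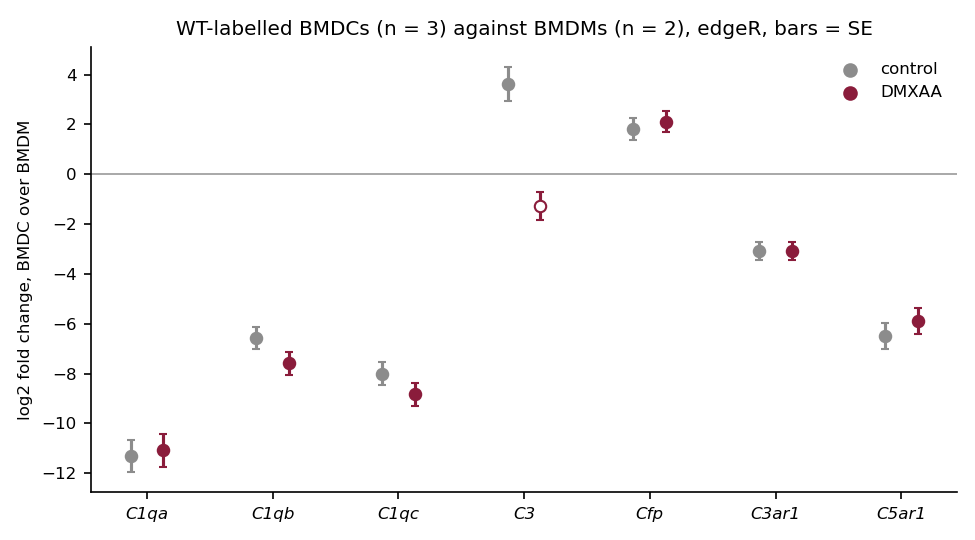
Log2 fold change of WT-labelled BMDCs (n = 3) over BMDMs (n = 2) for 7 members in control and with DMXAA, with bars for the SE of the edgeR fit. Filled points passed an adjusted p of 0.05. The 3 C1q chains lie between -11.3 and -6.57, Cfp is positive in both states, and C3 goes from 3.61 in control to -1.27 with DMXAA.

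By level per gene length, the order in BMDM controls numbered 1 and 2 ran from C1qb through C1qc, C3ar1, C1qa, C5ar1 and Cfp to C3, C2, C4b and Cfb. The range of C3ar1 was wide and overlapped with those of C1qc, C1qa, C5ar1 and Cfp, and C4b overlapped with Cfb. In BMDC controls the order was Cfp, C3, C3ar1, C1qb, C5ar1, C1qc, C2, C1qa, C4b and Cfb. There C3 overlapped with C3ar1, C5ar1 with C1qc, C2 with C1qa, and C1qa with C4b and Cfb.

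The genes most like each member were found by Pearson's r of log2(FPKM + 1) over the 20 libraries other than those numbered 3, among 8122 genes. These values share the 2 cell types and the scaling of each library and are descriptions only. For C1qa they were Apoe (r = 0.999), Hpgds and C1qc, for C1qb C1qc (0.998) and C1qa, and for C5ar1 Stab1 (0.995), Gas6 and Hpgds. For Cfp they were Ms4a8a (0.979), Rnase2b and Cd200r3. For C3ar1 they were Ifnar2 (0.986), a chain of the type I interferon receptor, Gnptab and Slc44a1. For C3 they were Slc2a6 (0.952), Ass1 and Gm5424. The low genes C4b (nearest Ifi203-ps, 0.894, and Oas2), Cfb (Cenpj, 0.958) and C2 (Zfp382, 0.720) did not reach the level set for this measure.

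A list of 46 other complement genes holds 15 initiating molecules, 7 terminal components, 14 regulators and 10 receptors. In BMDMs 16 of the 46 were tested, none of them a terminal component. With DMXAA, 3 rose and 5 fell in WT-labelled BMDMs (39.2% of all genes called), with a median of -0.48. C1ra, a protease of the C1 complex, had 1.61 and 1.30 FPKM in control and 7.03 and 6.25 with DMXAA (2.08 ± 0.25, edgeR, adjusted p = 0.00114). C1rl rose by 1.51 ± 0.39 and Cr1l, a membrane regulator, by 0.61 ± 0.12. The median of C1rl over the 8 BMDM libraries numbered 1 and 2 was 0.454 FPKM. C1rl passed the filter on low values mainly through the WT-labelled DMXAA libraries, so it is no support for this count or that between the labels under DMXAA.
C5ar2, the second receptor for C5a, had 3.73 and 1.86 FPKM in control and 0.596 and 0.855 with DMXAA, so it fell with C5ar1 (-2.04 ± 0.38, edgeR, adjusted p = 0.00638). C1qbp (-1.44), Lrp1 (-1.22), Cd93 (-1.09) and Itgam (-0.66) fell too. In CRE-labelled BMDMs 0 of the 16 were called (4 at an unadjusted p under 0.05, edgeR), where 10% of all genes were. There C5ar2 had 3.66 and 3.27 FPKM in control and 3.46 and 2.77 with DMXAA.

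Under DMXAA, 4 of the 16 were higher in CRE-labelled than in WT-labelled BMDMs and 2 lower, against 19.2% of all genes called. C5ar2 (2.14 ± 0.38) and the integrin chains Itgax (1.498 ± 0.21), Itgb2 (1.06 ± 0.11) and Itgam (0.52 ± 0.14), which form complement receptors for C3 fragments, were higher. In control the 3 integrin chains were already higher by 1.08, 0.76 and 0.34 in the means, with none called (edgeR, adjusted p = 0.349, 0.157 and 0.714). C1rl (-2.32 ± 0.41) and C1ra (-1.47 ± 0.24) were lower, as C3 was. C1rl passed the filter on low values mainly through the WT-labelled DMXAA libraries, so its call carries that choice. The difference between the responses passed for 0 of the 16, against 3.66% of all genes (edgeR, with 4 of the 16 at an unadjusted p under 0.05).

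In BMDCs, 15 of the 46 were tested. Clu, which encodes clusterin, a fluid-phase inhibitor of the terminal complex, had 0.690, 0.993 and 1.48 FPKM in WT-labelled controls and 7.66, 5.06 and 4.11 with DMXAA, without overlap (2.37 ± 0.33, edgeR, adjusted p = 0.000267). In CRE-labelled BMDCs it had 1.37, 1.59 and 0.918 in control and 3.94, 4.27 and 3.70 with DMXAA, also without overlap (1.59 ± 0.32, edgeR, adjusted p = 0.00371). In the WT-labelled set Cr1l also rose (0.69 ± 0.19) and C1qbp fell (-0.91 ± 0.25). Thus 2 of the 15 rose and 1 fell, where 32.2% of all genes were called. Clu was the only one of the 15 called in the CRE-labelled set, where 25.4% of all genes were. Between the cell types in control, 2 of the 18 tested were higher in WT-labelled BMDCs and 5 lower. Of all genes, 28.5% were called (13.1% higher and 15.4% lower). Clu (4.13 ± 0.53) and Itgax (2.67 ± 0.20) were higher, and Colec12 (-4.48 ± 0.90), C5ar2 (-3.22 ± 0.46) and Fcna (-2.33 ± 0.54) were among the lower. Clu passed the filter on low values only through BMDCs, and at least C5ar2 and Fcna only through BMDMs, so their calls carry that choice. Under DMXAA 3 were higher and 3 lower, where 30.6% of all genes were called (15.3% in each direction).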

How the data were processed

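RNA of 24 libraries (8 groups of 3, taken from the labels) was analysed from 1 table, whose 48 per-library columns were all matched to a library (0 unmatched). For each library the authors deposited a raw count of every gene and its FPKM value, the latter scaled by gene length and an effective library size that was 0.687 to 1.33 times the total counts. The submitters' processing notes name CASAVA 1.8, fastp, HISAT2 2.0.5, featureCounts 1.5.0-p3 and DESeq2 1.20.0 and the builds GRCm38 and mm10, and the use of strand in counting was not given in the sources used here. Gene coordinates of all 10 members equal the GRCm38 annotation. The table's further columns hold the authors' group means and their log2 fold changes and p-values, which were not used.

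The members, the lists and the tests were chosen with earlier results of these data known. Genes named are the members, the listed complement genes called in a comparison (up to 8 by size) and the 3 nearest genes of each member. Of the listed genes, 1 is not reported here by name. Counts were tested with the two-sided quasi-likelihood test of edgeR 4.0.16 (limma 3.58.1, R 4.3.3) after TMM scaling, for genes with FPKM of at least 1 in at least 2 BMDM, 3 BMDC or, for the cell types, 2 libraries, with Benjamini-Hochberg adjustment over all genes tested and a threshold of 0.05. The BMDM fit held 8 libraries, the BMDC fit 12 and the cell type fit 20. Comparisons that share control libraries are given side by side only. The labels do not state separate animals or cultures, so p-values measure the spread between these libraries, which may be technical. Scripts were tested on simulated data. Alternatives were DESeq2 1.42.0 (as test and as scaling), limma on log2(FPKM + 1) and log2(FPKM + 0.1), no filter, an FPKM of at least 5, the compared groups only, all BMDM libraries, leaving out each library, and the replicate number as a block. Scaling by total counts, leaving out both libraries of a pair and the spread of the WT-labelled BMDMs alone were chosen after seeing the data. The deviations of same-numbered BMDC libraries from their group means correlated at r = 0.395 to 0.677 within a label (6 pairs) and at -0.501 to 0.047 across labels (12 pairs). The number was therefore used as a pairing within each label of BMDCs in an alternative fit. The main BMDC fit held the group only and left this pairing out. The closest BMDC libraries of different labels, WT 3 with CRE 1 and WT 2 with CRE 3, differed in their counts by more than sampling noise (mean chi-square per gene 3.33 to 4.77) and were not counted as 1 library. Their labels were used as given, and an exchange of labels was not tested. The CRE-labelled BMDM libraries numbered 1 and 2 were about as close, with a mean chi-square per gene of 3.23 in control and 4.95 with DMXAA.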

Additional observations from a re-analysis of the deposited data

Results flagged for a closer look

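The response of C3 to DMXAA differed between WT-labelled BMDCs and BMDMs by -4.89 on the log2 scale (edgeR, adjusted p = 0.006), a test of the difference itself. It was the one cell type difference in response called among the 8 members tested.

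The 4 BMDM libraries numbered 3, which enter no test, showed more C3 and C4b with DMXAA than in control in both labels. From control to DMXAA the FPKM ratio of C3 was 1.34 in the WT-labelled pair (18016 and 24700 counts, 95% exact binomial interval of the ratio 1.31 to 1.37) and 1.996 in the CRE-labelled pair (3225 and 7438 counts, 1.92 to 2.08). For C4b the ratio was 2.69 (80 and 220 counts, 2.07 to 3.52) and 5.95 (16 and 110 counts, 3.51 to 10.8). These intervals cover counting error only, there is 1 library per state, and the difference has no replicate check.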

How the results depend on the processing

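The counts of members called in the cell type comparisons stayed within 1.5 times in all alternatives except with all BMDM libraries in the fit, where 0 members were called in control, under DMXAA and in response. With all BMDM libraries 0 members were also called for DMXAA in WT-labelled and CRE-labelled BMDMs and between the labels under DMXAA. For DMXAA in CRE-labelled BMDMs the number called, 2 as reported, was 6 with the compared groups only, 4 in DESeq2, 6 without a filter, 1 with the replicate block, 6 with the block within label, 5 with scaling by total counts, 6 without both WT-labelled libraries numbered 2 and 0 in all 4 fits that left out 1 library. The labels differed under DMXAA for 1 member at an FPKM of at least 5 and in limma on log2(FPKM + 0.1), 0 when only WT-labelled libraries set the variance, 0 to 1 in fits that left out 1 library, and 6 without both WT-labelled libraries numbered 2. In control they differed for 1 member without a filter and 3 without those 2 libraries. The responses of the labels differed for 1 member in DESeq2 and without a filter, 0 to 1 on leaving out 1 library, and 4 without those 2 libraries. In WT-labelled BMDMs DMXAA gave 2 to 4 members on leaving out 1 library (2 without DMXAA number 1). In BMDCs, DMXAA gave 2 members in the WT-labelled set with the compared groups only and with scaling by total counts, 3 without a filter and with the block within label, 2 without both CRE-labelled libraries numbered 2, and 1 to 2 on leaving out 1 library. In the CRE-labelled set it gave 3, 3, 2 and 0 to 2 under no filter, the block within label, without number 2 and on leaving out 1 library. Without both WT-labelled BMDM libraries numbered 2, C3 was higher in CRE-labelled controls by 0.53 (adjusted p = 0.0167) and C3ar1 lower under DMXAA by -0.32 (adjusted p = 7.47e-05, edgeR), the reverse of the reported signs, with the lone WT-labelled library assumed to vary like the others.

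Counts over all genes that changed by more than 1.5 times follow. For DMXAA in WT-labelled BMDMs (4531) it was 1697 with the compared groups only or the variance set by WT-labelled libraries only, 6849 with scaling by total counts and 7030 without number 2 of WT. For CRE-labelled BMDMs (1157) it was 6186 with the compared groups only, 1908 in DESeq2, 2120 without a filter, 2920 with the block within label, 6242 without number 2 of WT and 249 to 322 on leaving out 1 library. Between labels under DMXAA (2227) it was 3630 without a filter, 0 with that variance, 5935 without number 2 of WT, and 312 to 1406 without a CRE-labelled library or the WT-labelled one numbered 1. In control (5) it was 126 in DESeq2, 8 and 11 in limma, 700 without a filter, 0 with the compared groups only or that variance, 2 to 215 on leaving out 1 library and 2514 without number 2 of WT. For the responses of the labels (424) it was 1195 in DESeq2, 1342 without a filter, 1702 with the block within label, 0 with that variance, 5231 without number 2 of WT, and 0 to 1368 on leaving out 1 library. In BMDCs the block within label gave 5911 for 3904 (WT) and 5181 for 3084 (CRE, 1758 with the compared groups only), and 0 for the response of the labels became 1 in DESeq2 and 2 without a filter, as did 0 under DMXAA without a filter (2). With all BMDM libraries, 0 genes were called in every BMDM comparison and in the cell type difference in response, 1191 for 3812 between cell types in control and 1336 for 4092 under DMXAA (2546 without the WT-labelled DMXAA library numbered 1). The cell type difference in response (349) gave 738 in DESeq2, 527 in limma, 836 without a filter and as few as 134 on leaving out 1 library (WT-labelled BMDM, DMXAA, number 1).

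In BMDMs, 2 numbers per label do not establish a pairing, though same-numbered WT-labelled libraries deviated together (r = 0.656, 0.031 for CRE) and both numbered 2 held fibroblast RNA. With the number as a block, C1qa was called in neither label (edgeR, adjusted p = 0.0516 and 0.0537) and C3ar1 in WT (1.104, adjusted p = 0.0344). With the block within label, C3ar1 (adjusted p = 0.00035 and 0.00179) and Cfp (0.0313 and 0.0437) were called in WT and CRE, and C3 (0.038) and Cfb (0.0359) in CRE. Of 1551 values for single members under the alternatives, 1337 kept sign and side of the threshold, 95 changed sign without a call, 64 gained and 53 lost a call, and 2 turned. The cause of each change was not tested. With 2 BMDM libraries per group, and few counts of C2, C4b and Cfb and, in BMDCs, of C1qa, small differences were not detectable at this depth.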

Other observations

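The libraries numbered 3 held further complement RNA that the other 20 hardly held. C1s1, a protease of the C1 complex, had 5.64 to 44.5 FPKM in these 4 and at most 0.664 in the other 8 BMDM libraries and 0.277 in BMDCs. C1rb had 2.47 to 14.5 FPKM against at most 0.0728 and 0.206, C1s2 1.12 to 9.34 against at most 0.104 and 0.121, and Masp1, a protease of the lectin pathway, 5.07 to 6.94 against at most 0.423 and 0.540. These 4 genes were picked from the list of other complement genes after their values were seen. C1ra had 5.86 to 31.2 FPKM in the libraries numbered 3 and overlapped with the other BMDM libraries (1.18 to 7.03).

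Within the libraries numbered 3, C3 was higher in the WT-labelled than in the CRE-labelled pair in control (148 and 29.6 FPKM) and with DMXAA (198 and 59.1 FPKM), with 1 library per group and no test.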
